A study of Mus musculus with 37 samples.

Results

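Ubiquitin-conjugating enzymes, the E2 enzymes, were followed through mouse oocytes, early embryos and embryos made by nuclear transfer (NT), in which a recipient's genome is replaced by that of a donor cell. The members are the genes whose symbol in the array annotation starts with Ube2, and a probe was kept where it was detected, at a detection p-value below 0.05, on at least 2 arrays. On the first version of the bead array 26 of 32 Ube2 probes were kept, standing for 17 of 22 Ube2 genes, among 24613 probes in all. On the second version 24 of 31 probes were kept, standing for 16 of 22 genes, among 25697 probes. The 18 genes kept on either version, among 8765 genes kept in all, include 15 kept on both. Ube2g2 and Ube2l3 were kept on the first version only, and Ube2e3 on the second only. The probes of Ube2b, Ube2d1, Ube2l6, Ube2r2 and Ube2v2 reached detection on no more than 1 array of either version and were left out.

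Ubiquitin is passed from an activating enzyme (E1) to an E2, which, with a ubiquitin ligase (E3), attaches it to a protein or to the end of a growing ubiquitin chain. The E2 sets much of the chain's linkage, so different E2 enzymes serve protein degradation, DNA repair and signalling. In the mouse, transcripts stored in the oocyte are cleared after fertilization while the embryo's own genome becomes active, and the major wave of activation falls at the 2-cell stage. An embryo's transcript for an E2 can therefore be inherited, newly made, or both.

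The study exchanged the genome of zygotes or blastomeres at mitosis, and asked how far a somatic genome takes on embryonic expression within the next cell cycle. On the first array version, anaphase NT embryos (n = 2) and prometaphase NT embryos (n = 2) received interphase tail tip fibroblast nuclei into mitotic zygotes and were taken, where a label gives the time, 22 to 24 h after transfer. Cleavage-inhibited embryos (n = 2) were 1-cell embryos at 2-cell timing, and 2-cell controls (n = 2) were taken, likewise, 22 to 24 h after the first mitosis. M-phase zygotes (n = 3), interphase zygotes (n = 3, about 25 h after hCG for the sample with a stated time) and tail tip fibroblasts of agouti 129xB6 F1 mice (n = 3) completed the replicated groups, and 3 arrays were repeat hybridizations. On the second version, blastomere NT embryos (3 arrays) were taken 14 h after transfer and 4-cell controls (n = 2) 14 h after release from a mitotic block. Oocyte NT embryos (n = 2) carried interphase fibroblast nuclei in MII oocytes, the unfertilized eggs arrested in the second meiotic division, and were taken, like 1 parthenote (a parthenogenetic embryo sample), after 2 d. MII oocytes (n = 2) and repeat hybridizations of 2 of the 2-cell and 1 of the cleavage-inhibited RNA samples stood beside them. Genome-less embryos, kept for 1 d without a genome, and interphase zygotes given interphase embryonic stem (ES) cell nuclei, the ES interphase NT embryos, had 1 array on each version. All embryos were cultured in KSOM medium; the agent of the cleavage and mitotic blocks, the strain of the embryos and the number pooled per array were not given in the sources used here.

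Levels are normalized log2 bead intensities, and a level is set only against the same probe on the same array version. Arrays detected between 30.7 and 45.7% of probes on the first version, except 20.8 and 18.8% for its ES interphase NT and genome-less arrays, and between 33.8 and 44.0% on the second. The 30.7% was that of anaphase NT sample 15. Anaphase NT samples 15 and 19 correlated least of any replicate pair (r = 0.819 across probes), and interphase zygote 1 stood apart from samples 30 and 31 (r = 0.907 and 0.902). Blastomere NT arrays 1 and 3 differed little more (SD of the difference 0.266) than each repeat hybridization from the sample most like it (0.144 to 0.179), while array 2 lay further off (0.807 and 0.806). Arrays 1 and 3 were averaged as 1 sample, so n = 2 for that group. The 3 fibroblast arrays lay as close to each other (0.170 to 0.260) and were kept as 3, so their spread may be technical and p-values that use them too small. The few arrays limit the precision of every value. Labels call samples biological duplicates without naming litters or cultures, so a p-value here reflects sample-to-sample spread that could be partly technical. Fibroblast arrays detected 11 of 11 fibroblast markers and also 7 or 8 of 8 macrophage markers, and MII oocyte arrays detected 11 of 11 oocyte markers. In these bulk samples fewer cells of a type and less RNA per cell cannot be told apart.

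The promoters of 3 members that the results turn on are shown for their letters, each as the 250 bases before the annotated start (RefSeq, GRCm38.p6, read 5′ to 3′ on the gene's strand). Ube2c starts the ubiquitin chains that the anaphase-promoting complex (APC/C) builds on mitotic proteins, Ube2t serves the Fanconi anaemia pathway of DNA crosslink repair, and Ube2z takes ubiquitin from the E1 enzyme Uba6. Capitals mark CCAAT (the CCAAT box) or TTTGAA (the CHR element) on either strand, and both are common in promoters of cell cycle genes.
Ube2c, chr2:164769679-164769928, plus strand: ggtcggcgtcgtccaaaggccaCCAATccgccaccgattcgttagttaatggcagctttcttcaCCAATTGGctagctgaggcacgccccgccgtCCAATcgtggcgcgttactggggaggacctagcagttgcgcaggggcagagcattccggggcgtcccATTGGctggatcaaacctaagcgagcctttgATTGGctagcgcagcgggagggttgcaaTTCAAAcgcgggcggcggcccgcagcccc
Ube2t, chr1:134962315-134962564, plus strand: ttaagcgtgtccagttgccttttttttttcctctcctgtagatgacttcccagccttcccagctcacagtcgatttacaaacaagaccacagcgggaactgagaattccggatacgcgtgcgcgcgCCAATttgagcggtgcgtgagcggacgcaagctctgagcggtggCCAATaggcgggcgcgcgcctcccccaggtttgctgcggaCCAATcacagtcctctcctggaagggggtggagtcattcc
Ube2z, chr11:96065365-96065614, minus strand: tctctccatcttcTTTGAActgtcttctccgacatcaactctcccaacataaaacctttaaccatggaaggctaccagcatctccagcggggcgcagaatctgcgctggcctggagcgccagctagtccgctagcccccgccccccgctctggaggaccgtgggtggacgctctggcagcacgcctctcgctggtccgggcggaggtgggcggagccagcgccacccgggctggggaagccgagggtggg
The Ube2c window held 6 matches to CCAAT, of which a pair overlap in CCAATTGG, and a TTTGAA match 29 bases before the start. The Ube2t window held 3 CCAAT matches and no TTTGAA match, and the Ube2z window held no CCAAT match and a TTTGAA match 237 bases before the start. Of 32851 promoters of the same length, 33.8% held at least 1 CCAAT, 2.79% held 3 or more, and 16% held TTTGAA. Among the 14 of 18 members with an entry in the table, 6 had a CCAAT match, 3 had 3 or more and 3 had a TTTGAA match. A member with several listed starts was counted if any start had the match, whereas the shares count each start separately. Member counts and shares therefore cannot be set against each other directly. Ube2f was the other member with 3 CCAAT matches. It also had a TTTGAA match, 41 bases before 1 of its listed starts. GGGCGG (the GC box) was searched as well, on both strands: the windows of Ube2c, Ube2t and Ube2z held 1, 0 and 3 matches, and 32.7% of promoters held one. A match describes letters in the window and is not a bound site.

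Members were sorted by their change in cleavage-inhibited embryos against interphase zygotes, which share the 1-cell form but differ by about a cell cycle. This comparison chose the classes, so its passes, with all samples or in alternative fits, describe how the classes were set and test nothing. In it 10 of 17 members passed, 2 higher and 8 lower, where 42.5% of 8158 genes passed (21.3% higher and 21.2% lower). Ube2o (log2 difference 2.29) and Ube2z (1.49) formed the activated class. The class names give the direction of this change only, and whether a transcript was newly made or degraded was not tested. Ube2g1 (-2.76), Ube2a (-2.60), Ube2d3 (-2.36), Ube2g2 (-2.05), Ube2t (-1.91), Ube2l3 (-1.68) and Ube2c (-1.21) formed the decay class, at 1 log2 or more. Ube2c lay just inside the limit, and Ube2j2 (-0.98) and Ube2n (-0.94) just outside it among 8 remaining members, with Ube2f (0.79) the highest of those. With slide as a block 4 of the 10 passed. Without cleavage-inhibited sample 20 Ube2c differed by -0.79 and did not pass (adjusted p = 0.0948), and Ube2z did not pass without interphase zygote 30 or cleavage-inhibited sample 38.

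**Figure D1:**
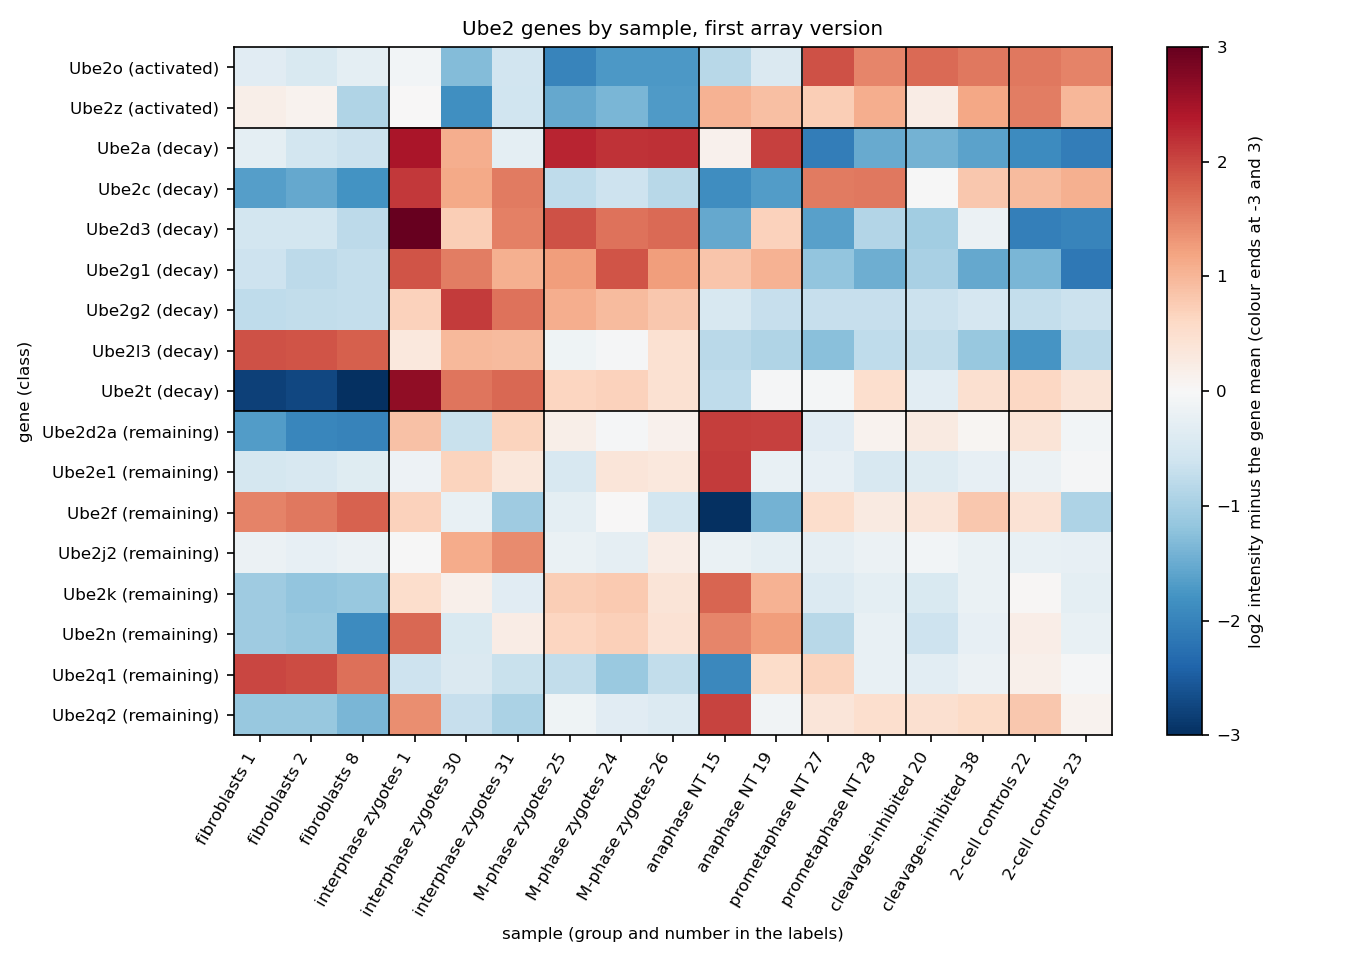
Heat map of the 17 Ube2 genes (rows, ordered by class) across 17 samples of the first array version (columns, grouped by sample type), as log2 intensity minus the gene's mean over these samples, with colours ending at -3 and 3. Ube2o and Ube2z are high in the 2-cell controls, cleavage-inhibited and prometaphase NT embryos, the decay class is mostly high in zygotes, and the anaphase NT columns differ from the prometaphase NT columns beside them.

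Ube2c was high in interphase zygotes, lower in M-phase zygotes and higher again in 2-cell controls. In order of development it read 8.22, 7.22 and 7.65 log2 in interphase zygotes, 5.33, 5.47 and 5.26 in M-phase zygotes, and 7.03 and 7.17 in 2-cell controls. No M-phase zygote reached the lowest sample of either neighbouring stage. It fell to 5.35 ± 0.11 in M-phase zygotes, against 7.70 ± 0.50 in interphase zygotes (SD, n = 3 each), a log2 difference of -2.34 ± 0.27 (SE; limma, Benjamini-Hochberg adjusted p = 0.000901). This fall was -2.27 with slide as a block (adjusted p = 0.0344), -2.17 within the slide that held both groups, and it passed without any 1 of the 6 samples. With only these 2 groups fitted it missed the threshold (adjusted p = 0.0889), as did every other gene tested. In 2-cell controls Ube2c rose by 1.75 ± 0.31 against M-phase zygotes (adjusted p = 0.000356), and by 1.51 within the slide that held both groups. Its level in cleavage-inhibited embryos was 6.08 and 6.90, below both 2-cell controls, and that difference did not pass (-0.61 ± 0.33, adjusted p = 0.918). A repeat cleavage-inhibited array, left out of the fit, read 7.06, and within its slide the difference was -0.04. Ube2c therefore met the decay rule between interphase zygotes and cleavage-inhibited embryos, while the step out of M phase went the other way. It was also not above background in either MII oocyte array of the second version, where it read 5.07 and 5.60.

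Of 17 members, 3 fell and 0 rose in M-phase against interphase zygotes, where 2.75% of 8158 genes passed in either direction (1.69% higher and 1.05% lower). Ube2t read 8.36, 8.41 and 8.17 in M-phase zygotes, against 10.37, 9.32 and 9.44 in interphase zygotes. It fell by 1.40 on the log2 scale (SE 0.33, limma adjusted p = 0.0387). Ube2o, a large E2 that also acts as its own E3 on unassembled proteins, fell by 1.16 (SE 0.27, limma adjusted p = 0.0365), with 7.25, 7.52 and 7.50 in M-phase zygotes, against 9.15, 7.93 and 8.66 in interphase zygotes. Neither gene's groups overlapped. Genes that passed were already picked for separated means, and no share over all genes is given. Non-overlap, here and below, is therefore only a description. Both calls were lost with slide as a block (adjusted p = 0.343 for Ube2t and 0.575 for Ube2o). Ube2t did not pass without interphase zygote 1 or 31 or any 1 M-phase zygote (adjusted p between 0.054 and 0.137), nor did Ube2o without interphase zygote 31 or any 1 M-phase zygote (between 0.0798 and 0.168).

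Between M-phase zygotes and 2-cell controls the members split, 3 higher and 6 lower of 17 in 2-cell controls, where 42.3% of genes passed (20.4% higher and 21.9% lower). The median over the members was -0.15, against 9.0e-05 over all genes. Ube2o rose most: it read 10.82 and 10.72 in 2-cell controls, against 7.25, 7.52 and 7.50 in M-phase zygotes. The log2 difference was 3.35 ± 0.30 (limma adjusted p = 1.1e-06). Ube2z read 7.77 and 7.23 in 2-cell controls, against 4.70, 4.85 and 4.53 in M-phase zygotes, of which the last was not detected. It rose by 2.81 ± 0.49 (limma adjusted p = 0.00035). Ube2o, Ube2z and Ube2c also passed with slide as a block and without any 1 of the 5 samples.

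The genes that fell at this step belong to several branches of the system. Ube2a, the mouse counterpart of yeast Rad6, works with Rad18 on the replication clamp and is needed in the egg for development past the first divisions. It read 4.73 and 4.54 in 2-cell controls, the second below detection, against 8.89, 8.78 and 8.80 in M-phase zygotes. The log2 difference was -4.19 ± 0.64 (limma adjusted p = 0.000113). Where no array of the lower group detected a gene, its fold change is a bound, given as at least N-fold. It sets the higher group's mean against, per array, the higher of the lowest detected signal and the probe's own level. Ube2d3, a broadly acting E2 of the UbcH5 type, was at least 10.5-fold lower (adjusted p = 0.000284), with 4.26 and 4.33 in 2-cell controls, against 8.23, 7.96 and 8.03 in M-phase zygotes. Ube2g1, an E2 that builds degradation-linked ubiquitin chains, fell by 3.23 (SE 0.32, adjusted p = 2.93e-06). It read 6.76 and 5.97 in 2-cell controls, against 9.39, 10.02 and 9.39 in M-phase zygotes. Its relative Ube2g2, which acts in endoplasmic reticulum-associated degradation, was at least 2.45-fold lower. Ube2g2 was detected on 7 of 22 arrays of this version, all of zygotes, so zygotes alone kept it among the members. Its falls against zygotes, here and in the other comparisons, are therefore only descriptions. None of these 4 genes had overlapping groups. The other 2 that passed were Ube2l3, which serves HECT and RBR ligases (-1.38 ± 0.32), and Ube2k, another E2 of degradation-linked chains (-0.77 ± 0.28). Both missed the threshold with slide as a block, Ube2l3 without 2-cell control 22 (-0.90, adjusted p = 0.0649), and Ube2k without M-phase zygote 25 or 24 or either 2-cell control (adjusted p between 0.0599 and 0.242).

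**Figure D2:**
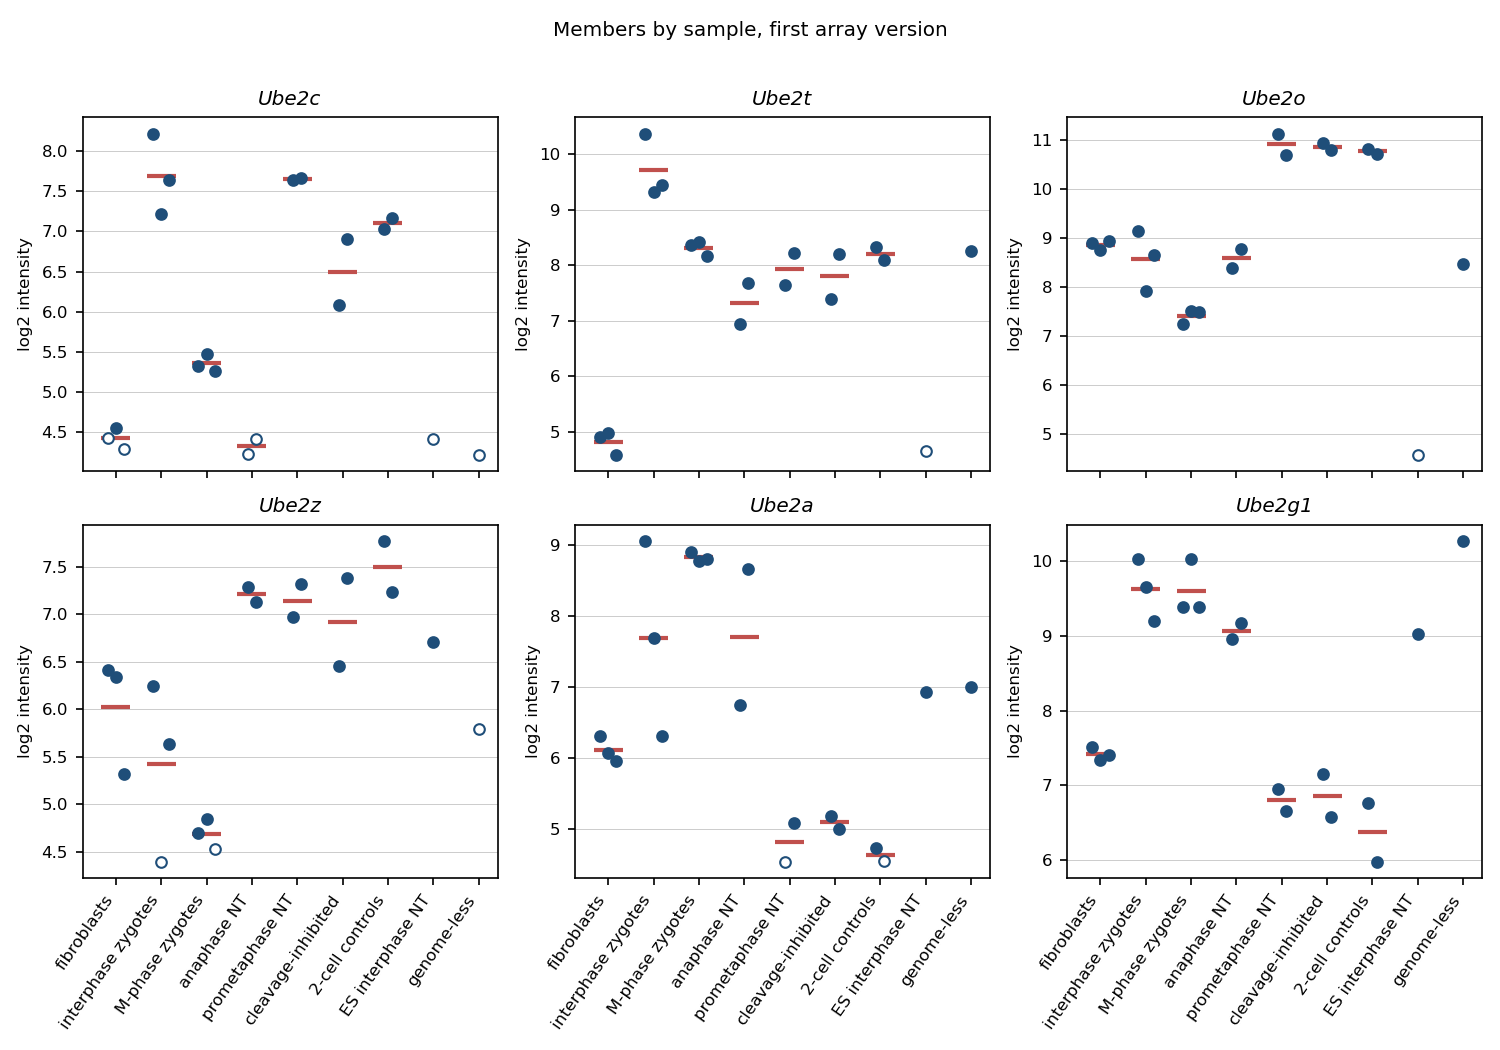
Normalized log2 intensity of Ube2c, Ube2t, Ube2o, Ube2z, Ube2a and Ube2g1 on the arrays of the first version, by group, without the 3 repeat hybridizations. Filled circles are detected, open circles not detected, and the red line is the mean of the arrays shown of a group with more than 1. Ube2c is low in M-phase zygotes and in anaphase NT embryos, and Ube2a and Ube2g1 stay high in anaphase NT embryos but not in prometaphase NT embryos.

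Keeping the embryo at 1 cell did not move the members past the threshold. Of 17 members 0 passed in cleavage-inhibited embryos against 2-cell controls by limma, 0 also at an unadjusted p under 0.05, and 0.233% of all genes passed (0.123% higher and 0.11% lower). The log2 differences ran from -0.61 for Ube2c to 1.42 for Ube2d3, which read 5.28 and 6.16 in cleavage-inhibited embryos, against 4.26 and 4.33 in 2-cell controls. Ube2o read 10.94 and 10.80 in cleavage-inhibited embryos, against 10.82 and 10.72 in 2-cell controls (0.10 ± 0.33).

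Levels of most members differed between donor fibroblasts and zygotes. Against interphase zygotes 3 of 17 members were higher and 10 lower in fibroblasts, beside 59.4% of genes that passed (31.2% higher and 28.2% lower), and the members' median was -1.25, against -0.06 over all genes. Ube2t, at 4.90, 4.98 and 4.59 in fibroblasts, against 10.37, 9.32 and 9.44 in interphase zygotes, fell by 4.89 (SE 0.33, limma adjusted p = 1.45e-08). Ube2c, at 4.43, 4.55 and 4.29 in fibroblasts, of which only the second was detected, fell by 3.27 (SE 0.27, limma adjusted p = 1.55e-07). Ube2d3 fell by 2.39 (SE 0.57, limma adjusted p = 0.00241), and Ube2g2 was at least 4.05-fold lower. The 3 that were higher in fibroblasts were Ube2q1 (2.44 ± 0.46, limma adjusted p = 0.000407), Ube2f, an E2 for the ubiquitin-like protein NEDD8 (1.82 ± 0.52), and Ube2l3 (1.12 ± 0.28). None of the 13, already picked by passing, had overlapping groups. Ube2o (0.29 ± 0.27) and Ube2z (0.60 ± 0.44) did not pass. Ube2f lost its call with slide as a block (adjusted p = 0.0522), and Ube2a, lower by 1.58, lost it without fibroblast 2 or 8 or interphase zygote 1 or 30 (adjusted p between 0.059 and 0.137).

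Zygotes that received a fibroblast genome at prometaphase and at anaphase were each set against 2-cell controls. In prometaphase NT embryos 0 of 17 members passed by limma, 0 also at an unadjusted p under 0.05, where 2.13% of genes passed (1.62% higher and 0.515% lower), and the differences ran from -0.52 to 0.77. Ube2c read 7.64 and 7.67 in prometaphase NT embryos, against 7.03 and 7.17 in 2-cell controls (0.56 ± 0.33, adjusted p = 0.623). Ube2o read 11.14 and 10.70 in prometaphase NT embryos, against 10.82 and 10.72 in 2-cell controls. Ube2a read 4.53 and 5.09 in prometaphase NT embryos, against 4.73 and 4.54 in 2-cell controls. The groups overlapped for Ube2o and Ube2a, and both prometaphase NT samples lay above both 2-cell controls for Ube2c.

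In anaphase NT embryos 4 members were higher and 3 lower of 17 against 2-cell controls, beside 35.5% of genes that passed (17.1% higher and 18.5% lower), and the members' median was 0.43, against 0.04 over all genes. Ube2c was detected in neither sample: it read 4.23 and 4.41 in anaphase NT embryos, against 7.03 and 7.17 in 2-cell controls. The log2 difference was -2.78 ± 0.33 (limma adjusted p = 2.9e-05), and it missed the threshold with only these 2 groups fitted (adjusted p = 0.076). A repeat hybridization of anaphase NT RNA, left out of the test, did detect Ube2c, at 5.22, so no bound is given for it. Ube2o fell by 2.18 (SE 0.33, adjusted p = 0.000164), with 8.39 and 8.79 in anaphase NT embryos, against 10.82 and 10.72 in 2-cell controls. Ube2z did not move with Ube2o past the threshold: it read 7.28 and 7.13 in anaphase NT embryos, against 7.77 and 7.23 in 2-cell controls (-0.29 ± 0.54, adjusted p = 0.748). Ube2f read 4.23, not detected, and 6.28 in anaphase NT embryos, against 8.14 and 6.78 in 2-cell controls. It fell by 2.21 (SE 0.64, adjusted p = 0.0159), but not past the threshold without anaphase NT 15 (-1.18, adjusted p = 0.179) or 2-cell control 22 (-1.52, adjusted p = 0.159).

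The 4 members that rose in anaphase NT embryos were 2 of the decay class and 2 of the remaining class. Ube2a read 6.75 and 8.66 in anaphase NT embryos, against 4.73 and 4.54 in 2-cell controls (3.07 ± 0.70, limma adjusted p = 0.00347). Ube2g1 read 8.96 and 9.17 in anaphase NT embryos, against 6.76 and 5.97 in 2-cell controls (2.70 ± 0.35, adjusted p = 5.36e-05). Both genes were high in M-phase zygotes, and for Ube2a the anaphase NT samples lay further apart than those of any other group of the first version except interphase zygotes. Ube2d2a, another UbcH5-type E2, read 12.87 and 12.85 in anaphase NT embryos, against 11.17 and 10.72 in 2-cell controls (1.91 ± 0.38, adjusted p = 0.00141). Ube2k rose by 1.52 ± 0.31 (adjusted p = 0.00147). None of the 7 members that passed had overlapping groups. With slide as a block Ube2c (-2.63, adjusted p = 0.0144) and Ube2g1 (3.33, adjusted p = 0.0115) passed, and the other 5 did not (adjusted p between 0.0842 and 0.431). Within the slide shared by the repeat anaphase NT array and the 2-cell controls all 7 kept their direction, with Ube2c at -1.88.

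Other transcripts moved with these members. Of all genes, 35.5% passed in anaphase NT embryos against 2-cell controls (17.1% higher and 18.5% lower), and 2.13% in prometaphase NT embryos. Oocyte markers were higher in anaphase NT embryos for 8 of 11 genes tested and lower for 0. Their summed log2 level was 118.7 and 116.6 in anaphase NT embryos, against 101.7 and 100.5 in 2-cell controls. Fibroblast markers were higher for 8 of 11, with 7 and 8 detected in anaphase NT embryos, against 1 in each 2-cell control, and a summed level of 67.7 and 76.1 in anaphase NT embryos, against 47.9 and 47.7 in 2-cell controls. In prometaphase NT embryos oocyte markers were higher for 0 and lower for 1, and fibroblast markers higher for 2 of 11. Of 7 markers of 2-cell genome activation, 2 were higher and 4 lower in anaphase NT embryos, and 8 macrophage and 4 cumulus cell markers gave 0 in either direction. The part of these levels in the Ube2 results was not tested.

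**Figure D3:**
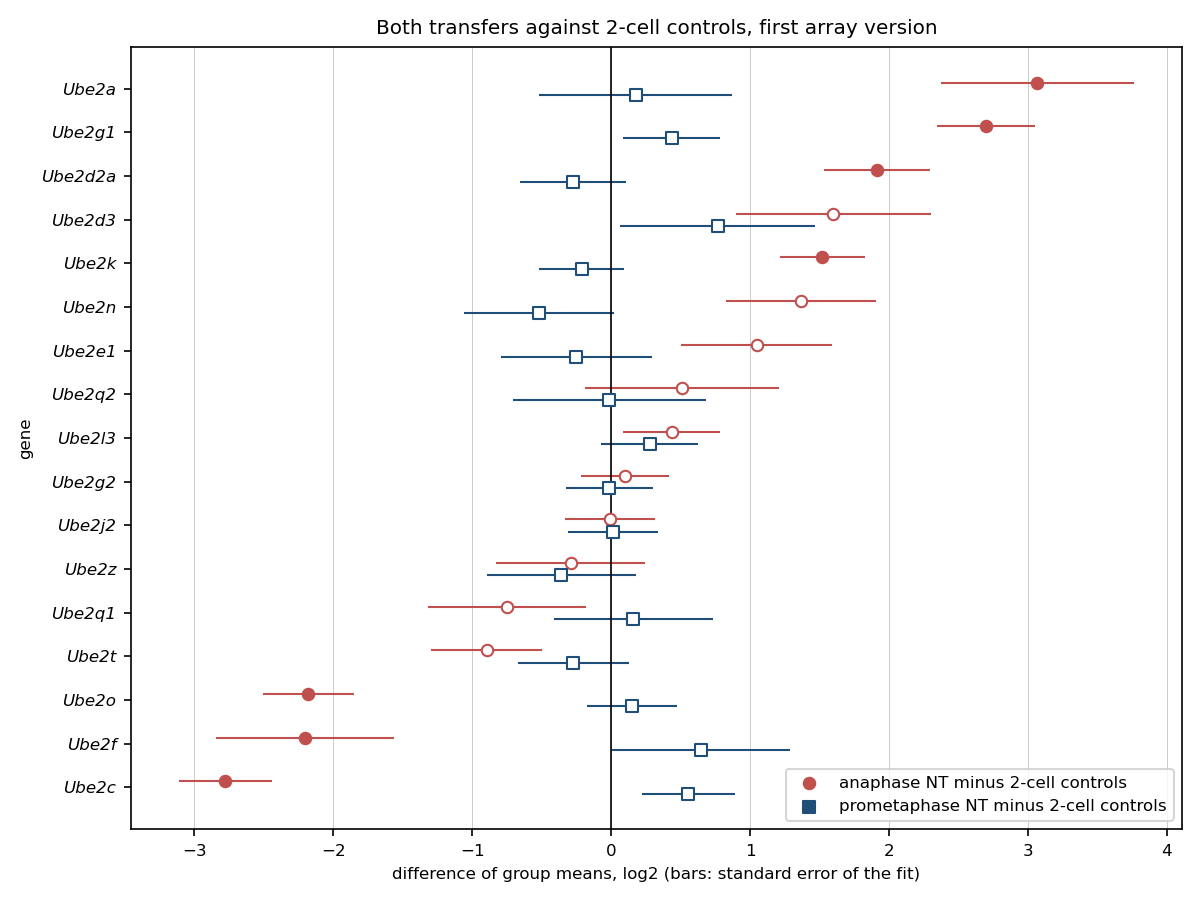
Log2 difference from 2-cell controls, with its standard error, for the 17 Ube2 genes in anaphase NT embryos (red circles) and prometaphase NT embryos (blue squares); filled symbols passed the adjusted p threshold. Anaphase NT values run from -2.78 for Ube2c to 3.07 for Ube2a with 7 filled, while prometaphase NT values run from -0.52 to 0.77 with 0 filled.

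The transfers were also set against each other directly. In anaphase NT against prometaphase NT embryos 5 members were higher and 3 lower, beside 40.5% of genes that passed (19.4% higher and 21.1% lower). Ube2c read 4.23 and 4.41 in anaphase NT embryos, against 7.64 and 7.67 in prometaphase NT embryos (-3.33 ± 0.33, limma adjusted p = 6.1e-06), and the difference was -2.43 within the slide of the repeat anaphase NT array. Ube2f (-2.85 ± 0.64), not detected in anaphase NT 15, and Ube2o (-2.33 ± 0.33) were the other members that fell. Ube2a (2.89 ± 0.70), Ube2g1 (2.26 ± 0.35), Ube2d2a (2.19 ± 0.38), Ube2n, which builds chains used in DNA repair and signalling (1.88 ± 0.54), and Ube2k (1.73 ± 0.31) rose, and no groups overlapped. With slide as a block Ube2c (-3.19, adjusted p = 0.00697) and Ube2g1 (2.89, adjusted p = 0.0168) passed. Ube2n lost its call without anaphase NT 15 (adjusted p = 0.0543) or prometaphase NT 27 (adjusted p = 0.101).

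Both transfers were compared with the M-phase zygotes that stand for their recipients, which gives the change over the following cell cycle. In anaphase NT embryos 4 members were higher and 6 lower, beside 39.6% of genes (19.1% higher and 20.5% lower). Ube2z (2.51 ± 0.49), Ube2d2a (1.98 ± 0.35), Ube2o (1.17 ± 0.30) and Ube2k (0.75 ± 0.28) rose. Ube2d3 (-2.18 ± 0.64) and Ube2f (-2.17 ± 0.59), neither detected in anaphase NT 15, fell. Ube2g2 was at least 2.12-fold lower, and Ube2c, already low in M-phase zygotes, fell by 1.03 (SE 0.31, limma adjusted p = 0.0162). Within the 2 slides that held both groups Ube2c differed by -1.01 and, where the repeat anaphase NT array stood for its group, by -0.37. Ube2t (6.95 and 7.68 in anaphase NT embryos, against 8.36, 8.41 and 8.17 in M-phase zygotes) and Ube2l3 (-0.95 ± 0.32) completed the 6. This count rested on single samples: 5 members passed without anaphase NT 15, 13 without anaphase NT 19, and 3 with slide as a block. Without anaphase NT 15 Ube2c (-0.94, adjusted p = 0.0635), Ube2d3 (adjusted p = 0.236) and Ube2f (0.154) did not pass. Ube2k and Ube2t did not pass without anaphase NT 15 or any 1 M-phase zygote (adjusted p between 0.0602 and 0.363), nor Ube2l3 without either anaphase NT sample or M-phase zygote 26 (between 0.068 and 0.0962).

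In prometaphase NT embryos 3 members were higher and 6 lower than in M-phase zygotes, beside 44.9% of genes (23% higher and 22% lower). Ube2o (3.50 ± 0.30), Ube2z (2.45 ± 0.49) and Ube2c (2.30 ± 0.31, limma adjusted p = 3.18e-05) rose. Ube2a (-4.01 ± 0.64), Ube2d3 (-3.01 ± 0.64) and Ube2g1 (-2.80 ± 0.32) fell, and Ube2g2 was at least 2.54-fold lower. Ube2l3 (-1.11 ± 0.32) and Ube2k (-0.98 ± 0.28) fell as well, but not without prometaphase NT 27 (adjusted p = 0.12 and 0.0701). The M-phase arrays are the ones that 2-cell controls were set against. Scaled to a common 75th percentile, the split was 4 higher and 5 lower.

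The second array version placed the members between the egg and the 4-cell stage. In 4-cell controls against MII oocytes 4 of 16 members were higher and 4 lower, beside 53.5% of 7139 genes that passed (26.6% higher and 26.9% lower). Ube2a read 9.55 and 9.85 in 4-cell controls, against 6.44 and 6.14 in MII oocytes, where it was not detected. It was at least 9.08-fold higher (limma adjusted p = 0.000312). The genome-less array of this version, which entered no test, read 10.58 for Ube2a. Ube2c read 8.26 and 8.06 in 4-cell controls, against 5.07 and 5.60 in MII oocytes, and was at least 3.13-fold higher (adjusted p = 0.000328). Ube2d3 ran the other way, at 7.12 and 7.97 in 4-cell controls, against 11.32 and 11.31 in MII oocytes (-3.77 ± 0.52, adjusted p = 9.96e-05). None of these 3 genes had overlapping groups.

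Of the other 5 members that passed, Ube2q1 (2.43 ± 0.47, limma adjusted p = 0.00104) and Ube2q2 (1.87 ± 0.50) rose. Ube2n (-2.29 ± 0.45), Ube2d2a (-1.27 ± 0.26) and Ube2k (-0.93 ± 0.32) fell. The activated class did not pass here: Ube2o read 12.46 and 12.22 in 4-cell controls, against 11.99 and 12.30 in MII oocytes (0.20 ± 0.28), and Ube2z differed by 0.19 ± 0.49. Ube2q2 lost its call without MII oocyte 1 or 4-cell control 1 (adjusted p = 0.0581 and 0.0591), and Ube2k without MII oocyte 2 or either 4-cell control (adjusted p between 0.0665 and 0.205) or with slide as a block (0.067). By the series matrix values the split was 5 higher and 3 lower.

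A second kept probe went against the one shown for Ube2q2 and Ube2n. For Ube2q2 it was lower in 4-cell controls than in MII oocytes (-1.51 ± 0.48, adjusted p = 0.0203 over all probes). For Ube2n it did not differ past the threshold there (0.14 ± 0.64), and it was higher in fibroblasts than in interphase zygotes (1.62 ± 0.60, adjusted p = 0.0318), where the shown probe was lower (-1.86 ± 0.44). The second probe of Ube2f did not pass in fibroblasts against interphase zygotes (-0.57, adjusted p = 0.0862) or in anaphase NT embryos against 2-cell controls (-0.41, adjusted p = 0.382). Both other probes of Ube2g1 rose with the shown one in anaphase NT embryos against 2-cell controls (2.62 and 3.20).

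**Figure D4:**
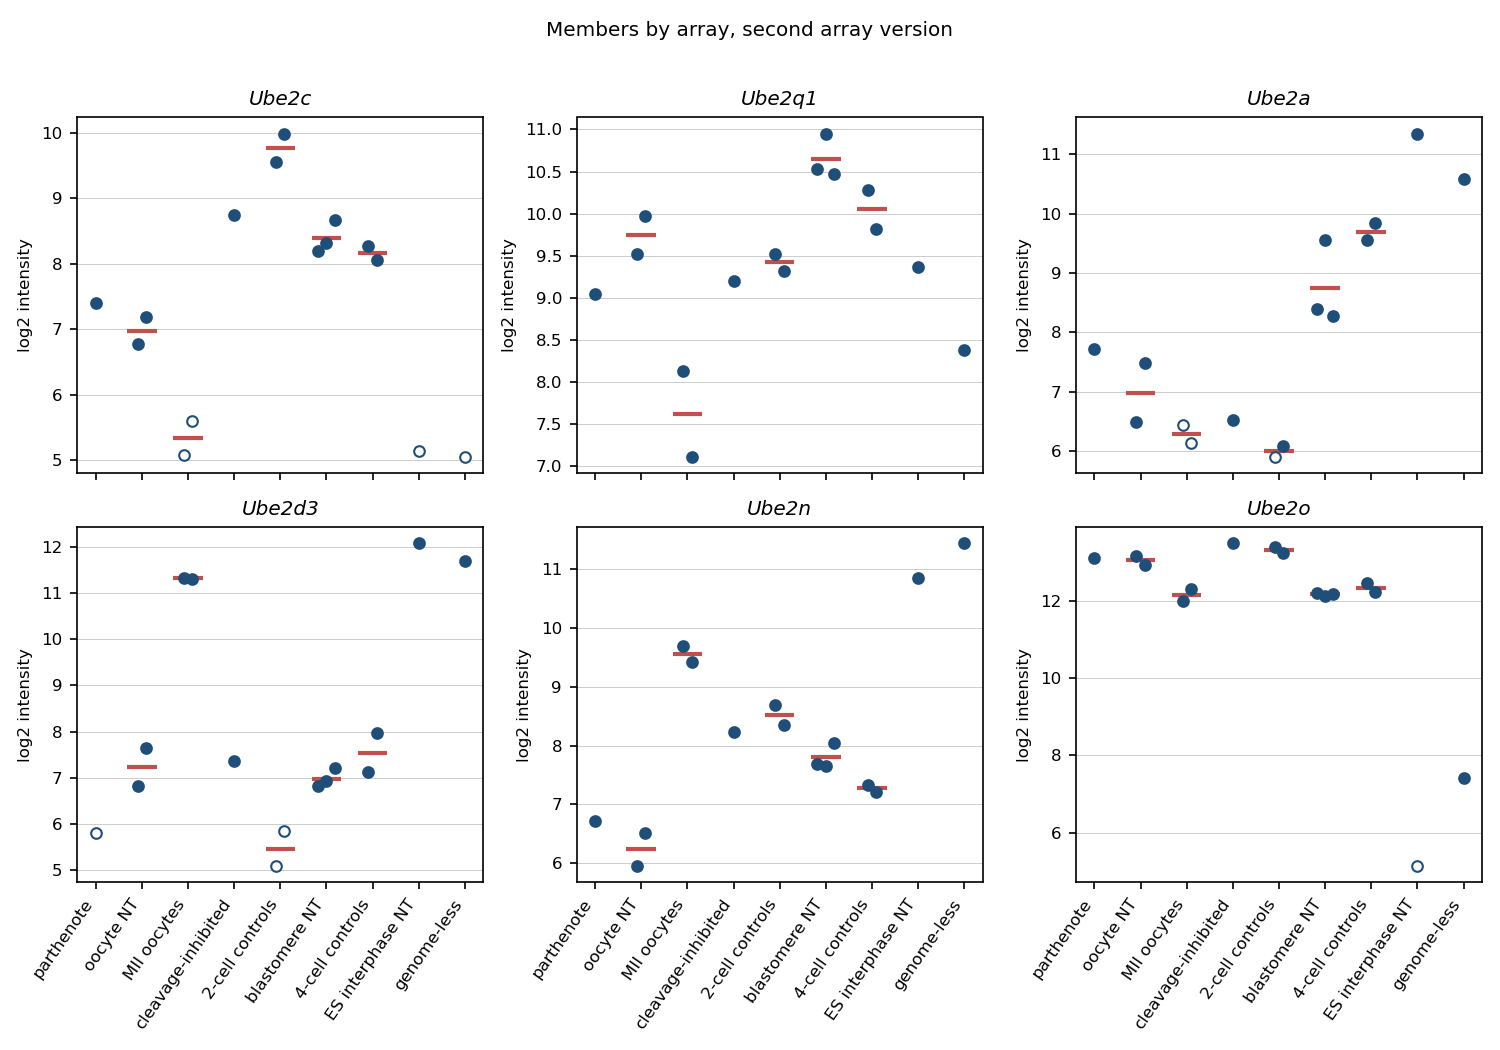
Normalized log2 intensity of Ube2c, Ube2q1, Ube2a, Ube2d3, Ube2n and Ube2o on every array of the second version, by group; filled circles are detected, open circles not detected, and the red line is the mean of the arrays of a group with more than 1 (3 arrays for blastomere NT embryos). Ube2c is not detected in MII oocytes and is highest in 2-cell controls, and Ube2d3 and Ube2n are high in MII oocytes and low in oocyte NT embryos.

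Between the 2-cell and the 4-cell stage, on the second version, 2 of 16 members were higher and 4 lower in 4-cell controls, beside 19.2% of genes (9.3% higher and 9.88% lower). Ube2a read 9.55 and 9.85 in 4-cell controls, against 5.91 and 6.09 in 2-cell controls (3.70 ± 0.55, limma adjusted p = 0.00178). Ube2d3, detected in neither 2-cell control, was at least 2.83-fold higher (adjusted p = 0.0189). Ube2d2a fell by 1.56 (SE 0.26, adjusted p = 0.00305). Ube2c read 8.26 and 8.06 in 4-cell controls, against 9.56 and 9.99 in 2-cell controls (-1.61 ± 0.46, adjusted p = 0.033). Ube2t (-1.63 ± 0.45) and Ube2o (-0.97 ± 0.28) were the other members that fell, and no groups overlapped. Ube2a and Ube2d2a passed without any 1 of the 4 samples, and between 2 and 4 members passed in these omissions. Ube2c did not pass without 2-cell control 2 or either 4-cell control (adjusted p between 0.106 and 0.193), Ube2d3 without 2-cell control 1 or either 4-cell control (between 0.0557 and 0.18), and Ube2t and Ube2o without any 1 of the 4 (between 0.0634 and 0.233). The 2-cell arrays were all on 1 slide and the 4-cell arrays on 2 others, so stage and slide cannot be told apart in a fixed block. The slide of 4-cell control 2 is that of its description, since its title repeats the position of oocyte NT 2. With slide as a random block, an alternative chosen after seeing the data, 8 members passed (3 higher and 5 lower): the 6 above, Ube2g1 (1.20, adjusted p = 0.0464) and Ube2n (-1.25, adjusted p = 0.0388). That setting, with an estimated correlation of -0.182, passed 26% of all genes. By the series matrix values the split was 3 higher and 3 lower, and without background correction 1 higher and 4 lower.

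Blastomere NT embryos were set against 4-cell controls, their stage-matched controls. Of 16 members 0 passed by limma, 0 also at an unadjusted p under 0.05, where 2.8% of genes passed (2.06% higher and 0.742% lower), and the differences ran from -0.75 for Ube2a to 1.47 for Ube2f. Ube2c read 8.20, 8.32 and 8.67 in blastomere NT embryos, against 8.26 and 8.06 in 4-cell controls (0.22 ± 0.46). Ube2a read 8.40, 9.55 and 8.28 in blastomere NT embryos, against 9.55 and 9.85 in 4-cell controls (-0.75 ± 0.55). Ube2o read 12.20, 12.13 and 12.18 in blastomere NT embryos, against 12.46 and 12.22 in 4-cell controls (-0.18 ± 0.28). Macrophage markers were higher in blastomere NT embryos for 4 of 6 genes, with 5 or 6 detected in blastomere NT embryos, against 1 and 0 in 4-cell controls. Of these markers, Laptm5 and C1qb also averaged 10.84 and 8.34 in MII oocytes. Each blastomere NT array detected 4 of 5 fibroblast markers, against 1 and 2 in 4-cell controls, while the fibroblast marker Pdgfra was lower (-3.12 ± 0.51). The part of these markers in the Ube2 values was not tested.

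In oocyte NT embryos against MII oocytes 4 members were higher and 2 lower, beside 52.7% of genes (26.1% higher and 26.6% lower). Ube2d3 read 6.82 and 7.65 in oocyte NT embryos, against 11.32 and 11.31 in MII oocytes (-4.08 ± 0.52, limma adjusted p = 7.17e-05). Ube2n read 5.95 and 6.51 in oocyte NT embryos, against 9.70 and 9.43 in MII oocytes (-3.33 ± 0.45, adjusted p = 0.000103), and its second probe fell as well (-1.87, adjusted p = 0.0295). Ube2q1 rose by 2.12 ± 0.47 (adjusted p = 0.00275), although its second probe differed by -0.10 ± 0.59. Ube2d3, Ube2n and Ube2q1 passed without any 1 of the 4 samples. Ube2c read 6.77 and 7.18 in oocyte NT embryos, against 5.07 and 5.60 in MII oocytes. It was at least 1.37-fold higher (adjusted p = 0.011), but did not pass without oocyte NT 2 or MII oocyte 1 (adjusted p = 0.0653 and 0.0685). Ube2q2 (1.49 ± 0.50) and Ube2o (0.90 ± 0.28, adjusted p = 0.0199) passed with all samples and not without oocyte NT 1 or MII oocyte 1. Ube2o turned to -0.27 when arrays were scaled to a common 75th percentile. That scaling gave 2 higher and 4 lower, and the series matrix values gave 7 higher and 2 lower. The parthenote, also at 2 d, read 7.40 for Ube2c, 5.80 for Ube2d3, not detected, and 6.72 for Ube2n. Oocyte markers were lower in oocyte NT embryos for 10 of 11 genes and higher for 0.

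In blastomere against oocyte NT embryos 1 of 16 members was higher and 1 lower, beside 9.26% of genes that passed (4.13% higher and 5.13% lower). At an unadjusted p under 0.05 the count was 7, and the differences ran from -1.04 to 2.28. Ube2a was higher (1.96 ± 0.55, limma adjusted p = 0.0491) and Ube2d2a lower (-1.04 ± 0.26, adjusted p = 0.0331). Between 0 and 1 members passed without any 1 sample, and 0 with slide as a block. Ube2c read 8.20, 8.32 and 8.67 in blastomere NT embryos, against 6.77 and 7.18 in oocyte NT embryos (1.40 ± 0.46, adjusted p = 0.0806). The split was 2 higher and 0 lower with arrays scaled to a common 75th percentile, 1 and 0 by the series matrix values, and 0 and 1 without background correction. Macrophage markers were higher in blastomere NT embryos for 5 of 6 genes and oocyte markers lower for 5 of 11, and their part in the Ube2 values was not tested.

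The members not yet described seldom passed. Ube2e1 passed in none of the comparisons of either version, and its log2 differences on the first ran from -0.74 in fibroblasts against interphase zygotes to 1.30 in anaphase NT against prometaphase NT embryos. Ube2e3, measured on the second version, also passed in none (-0.20 to 0.69), and Ube2q2 passed in none on the first (-1.13 to 1.25). Ube2j2, an E2 of the endoplasmic reticulum membrane, was at least 1.97-fold lower in fibroblasts than in interphase zygotes (limma adjusted p = 0.00378), and outside the comparison that set the classes it passed in no other. Leaving repeat hybridizations aside, only zygote arrays of the first version detected Ube2j2, so that fall is only a description.

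The genes that act before and after the E2 were counted in the same fits. Of all genes, 35.5% passed in anaphase NT embryos against 2-cell controls (17.1% higher and 18.5% lower). The share was 42.3% in 2-cell controls against M-phase zygotes (20.4% higher and 21.9% lower). In M-phase against interphase zygotes it was 2.75% (1.69% higher and 1.05% lower). The lists were not tested against these shares. In anaphase NT embryos against 2-cell controls, 1 of 6 APC/C subunits and activators tested was higher (Anapc5, 0.77) and 1 lower (Cdc16, at least 4.90-fold), with a median of 0.18, against 0.04 over all genes. Of 6 mitotic genes, some of them coding for APC/C substrates, 4 were lower and 0 higher (median -1.52). The lower ones included the mitotic kinases Cdk1 (-3.54 ± 0.72, limma adjusted p = 0.00155) and Aurka (-2.52 ± 0.32, adjusted p = 4.12e-05). The anaphase NT samples differed widely for Cdk1 (5.93 ± 2.29, SD, n = 2). In 2-cell controls against M-phase zygotes these mitotic genes gave 1 higher (Cdk1, 2.29) and 2 lower (Aurka, -1.35, and Birc5, -1.12). The APC/C genes gave 0 higher and 3 lower (Fzr1, -2.27, and Anapc16, -1.26, the lowest). In M-phase against interphase zygotes the APC/C genes gave 0 in either direction and the mitotic genes 1 higher (Birc5, 1.09).

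In anaphase NT embryos against 2-cell controls, where 35.5% of all genes passed (17.1% higher and 18.5% lower), 4 E1 genes were tested. Of these, Nae1, which activates NEDD8, was higher (1.77) and Sae1, which activates SUMO, lower (-1.88). E2 and E2-like genes left out of the members because their symbols lack the Ube2 prefix gave 1 higher (Cdc34, 1.52) and 2 lower (Atg3, -3.94, and Ufc1, -1.54) of 7. Ubiquitin and ubiquitin-like genes gave 0 higher and 1 lower of 3, and cullin, SCF and COP9 signalosome genes 3 higher and 7 lower of 15. SUMO ligases and proteases gave 1 higher and 3 lower of 10, and RING and HECT partner ligases 0 higher and 2 lower of 14. In prometaphase NT embryos against 2-cell controls every one of these 8 lists gave 0 in either direction, except 1 lower among the cullin and COP9 genes. In that comparison 2.13% of all genes passed. In cleavage-inhibited embryos against 2-cell controls all 8 gave 0, where 0.233% of all genes passed.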

How the data were processed

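RNA of embryos, oocytes and fibroblasts was isolated with the PicoPure kit, amplified and biotin-labelled, and hybridized to 2 versions of a mouse bead array, per the labels. The deposited values used here are unnormalized bead intensities with a detection p-value per probe and array, per the file headers, and GenomeStudio (version not given) is named in the submitters' processing notes. Gene symbols came from the platform annotation, which gave 1 symbol to 14898 of 24613 probes on the first version and 15052 of 25697 on the second.

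Each version was normalized on its own with limma 3.58.1 (R 4.3.3): normexp background correction from the detection p-values, an offset of 16, quantile normalization and log2. A probe needed a detection p-value under 0.05 on 2 or more arrays, and the brightest such probe stood for its gene, which left 8158 and 7139 genes. Group means were fitted over all 19 and 14 samples (10 and 5 residual degrees of freedom), with lmFit and eBayes with an intensity trend, and two-sided p-values were adjusted over all genes by Benjamini-Hochberg, with a threshold of 0.05. The 3 repeat hybridizations of the first version were left out, and blastomere NT arrays 1 and 3 were averaged. The fit was tested on simulated data. Figures were drawn with matplotlib 3.10.9.

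Members, classes and gene lists were chosen with earlier results of these data known. In each comparison up to 4 members with the largest rise and 4 with the largest fall were to be named, with Ube2c always described and up to 2 partner genes per direction and list. Other members were named after their values were seen. Alternatives were no background correction, scaling to the 75th percentile, the authors' series matrix intensities (their steps are not given in the sources used here) floored at 16, no detection filter, every probe on its own, slide as a block, only the 2 groups compared, each blastomere NT array on its own, and each sample left out in turn.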

Additional observations from a re-analysis of the deposited data

Results flagged for a closer look

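Genome-less embryos and ES interphase NT embryos had 1 array on each version and entered no test. Of 15 members measured on both versions, 3 lay at least 2 log2 above the higher 2-cell control on both in genome-less embryos and 2 lay at least 2 log2 below the lower one. Of 6532 genes measured on both versions, 5.57% were higher and 13% lower by the same limits. In genome-less embryos Ube2a was above by 2.27 on the first version and 4.49 on the second. Ube2g1 was above by 3.50 and 3.43 in the same order, and Ube2n by 2.52 and 2.76. Ube2z, of the activated class, read 10.66 on the second version, against 9.85 and 8.95 in 2-cell controls, and was not detected on the first. Ube2c and Ube2o were the 2 that were lower by normalized level, a count that did not ask for detection. Ube2c was not detected on the first-version genome-less array, whose lowest detected signal was 6.53. The lower 2-cell control there read 7.03 for Ube2c, so a gap of 2 log2 is not shown for it on that version.

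In ES interphase NT embryos Ube2a was above by 2.21 on the first version and 5.26 on the second. Ube2d3 was above by 4.83 and 6.24 in the same order, and Ube2g1 by 2.25 and 3.20. In genome-less embryos Ube2d3 was also above, by 5.86, on the second version. It was not counted there because the first-version genome-less array did not detect it. Ube2c, Ube2o and Ube2t lay at least 2 log2 below the lower 2-cell control on both versions by normalized level. Ube2c and Ube2o were detected on neither ES interphase NT array, and Ube2t not on the first-version one. The lowest detected signal of that array was 6.25, beside lower 2-cell levels of 7.03 for Ube2c and 8.09 for Ube2t. A gap of 2 log2 is therefore not shown for Ube2c and Ube2t on the first version. Of all genes 4.73% were higher and 11% lower in ES interphase NT embryos by these limits. Ube2c was detected on none of the 4 arrays of these 2 groups. The first-version arrays of both groups detected the smallest shares of probes, 18.8% for genome-less and 20.8% for ES interphase NT embryos. The part of this in the values was not tested.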

How the results depend on the processing

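Of the recomputed counts of members that passed, 87 were within 1.5 times the count reported and 20 were not. Scaling to the 75th percentile gave 1 in M-phase against interphase zygotes (3 as reported) and 6 in anaphase NT embryos against M-phase zygotes (10), and turned Ube2o in oocyte NT embryos against MII oocytes to -0.27 (adjusted p = 0.461). It moved the median of all genes by between -0.68 and 0.42, and by over 0.1 in 12 of 15 comparisons. No detection filter gave 1 in M-phase against interphase zygotes. Slide as a block gave 1 in M-phase against interphase zygotes, 4 in cleavage-inhibited embryos against interphase zygotes (10), 2 in anaphase NT embryos against 2-cell controls (7), 2 against prometaphase NT embryos (8) and 3 against M-phase zygotes, where 0.405, 15.4, 10.9, 12.5 and 24% of all genes passed, in that order. With only the 2 groups compared these 5 counts were 0, 5, 2, 4 and 5, where 0, 32.4, 4.31, 10.4 and 26.3% of all genes passed. Blastomere against oocyte NT embryos (2) gave 1 without background correction, 1 by the series matrix values, 0 without the detection filter, 1 with every probe on its own, 0 with slide as a block, 0 with only the 2 groups and 6 with each blastomere NT array as a sample. The cause was not tested, other than that fits of only the 2 groups rest on fewer samples.

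Leaving out 1 sample at a time gave between 1 and 5 members in M-phase against interphase zygotes, 5 and 13 in anaphase NT embryos against M-phase zygotes, 2 and 4 in 4-cell against 2-cell controls, and 0 and 1 in blastomere against oocyte NT embryos. Of 91 member calls, 61 passed in the same direction in every such omission. The 91 calls include the 10 of the comparison that set the classes. Of the 91, 34 were lost with slide as a block (not fitted for 4-cell against 2-cell controls) and 28 with only the 2 groups compared. Scaling to the 75th percentile lost 11 and turned 1 more to the other direction. The series matrix values lost 9, no detection filter 9, no background correction 2 and every probe on its own 1. That last count follows the probe shown for each gene, and second probes that went otherwise are given above. The 3 comparisons with 0 members stayed at 0 in the single-sample omissions. No paired analysis was possible because the groups compared on the first version share fewer than 2 sample numbers, and nothing in the labels ties equal numbers on the second. Dim probes limit the low levels: the lowest detected signal lay between 4.47 and 6.53 log2 on the first version and 5.78 and 6.58 on the second, and levels near it have no firm order.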
